A study of Homo sapiens with 11 samples.

Results

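Transcription factors that set apart the ventricular, atrial and pacemaker parts of the heart were followed through long-term culture of human cardiomyocytes. The set held 7 genes, IRX3, IRX4, HEY1, HEY2, TBX2, TBX3 and SHOX2, chosen by name from the 19990 genes of the count table, and all 7 were present in it and passed the low-count filter. The cells were cardiomyocytes made from WTC11, an established line of human induced pluripotent stem cells, at passage 63. CHIR99021, an inhibitor of the kinase GSK3, was followed by IWP2, an inhibitor of Wnt secretion, and all wells were then kept in medium with B27 and insulin. Wells were collected at Day 30 (4 wells), Day 60 (3 wells) and Day 113 (4 wells), so the days differ in time of culture alone as labelled. All wells came from 1 differentiation of 1 line, and p-values therefore measure the spread between these wells and not between differentiations. No batch was labelled, and the day of culture and the day of collection cannot be told apart.

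In the developing heart, IRX4 and HEY2 mark ventricular muscle, with HEY2 strongest in the compact wall. HEY1 is the atrial counterpart of HEY2, and both are repressors of the basic helix-loop-helix class that Notch signalling can switch on. IRX3 belongs to the trabecular layer and the fast-conducting Purkinje system. TBX2 and TBX3 are T-box repressors downstream of bone morphogenetic protein (BMP) signalling that hold back the working-muscle programme in the atrioventricular canal and the conduction system. SHOX2 is a homeodomain factor of the sinoatrial node, the heart's pacemaker, where it restrains NKX2-5.

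The libraries held 24.1 to 34.5 M counts (M, units of 1000000). A floor of 3 counts, about the upper 95% limit for an observed 0, came to 0.0856 to 0.120 counts per 1000000 (CPM). The CPM values here are scaled by the trimmed mean of M-values (TMM), and such limits cover counting error only. The first principal component of log2 CPM carried 48.2% of the variance and ordered the days. The 10 genes taken to define cardiomyocytes summed to 31791 to 43831 CPM at Day 30, 39289 to 45144 CPM at Day 60 and 32902 to 34795 CPM at Day 113. Markers of other cells moved with the days. Summed over 9 endoderm and epithelial genes the range was 987 to 2127 CPM at Day 30 and 88.5 to 244 CPM at Day 113, and 8 of the 9 fell between those days. All 10 endothelial genes rose between Day 60 and Day 113, from sums of 51.4 to 81.9 CPM to sums of 232 to 888 CPM. Sums over 11 fibroblast and epicardial genes ran from 3368 to 7722 CPM at Day 30, 2092 to 3602 CPM at Day 60 and 5483 to 13086 CPM at Day 113. These genes did not move together, as 5 rose, 3 fell and 3 did not pass from Day 30 to Day 113. Their sums rested largely on collagens, with COL3A1 and COL1A1 the most abundant (3623 and 3076 CPM at Day 113). In the other lists the most abundant were KRT19 and AFP among the endoderm and epithelial genes (634 and 500 CPM at Day 30). Among the endothelial genes they were PECAM1 and CDH5 (186 and 76.5 CPM at Day 113). Of 7 mural genes, 3 rose and 4 did not pass from Day 30 to Day 113. Over all genes 17.3% rose and 17.2% fell between those days, and 12.9% rose between Day 60 and Day 113. None of these markers was at 0 in every well of a day. The library of Day 113 replicate 2 differed from the other 3 of its day in single genes that were picked after their values were seen. On the first principal component that library did not stand apart, at 63.2 where the others of its day lay between 60.8 and 72.2. It held 2535 CPM of TTN, which encodes the very long sarcomere protein titin, where the others held 5573 to 6744 CPM, and 5816 CPM of TNNT2, cardiac troponin T, where the others held 3681 to 3985 CPM. TBX20, a cardiac T-box factor, was at 327 CPM in it against 486 to 519 CPM, and MYL7, the atrial myosin light chain, at 8793 CPM against 5886 to 6392 CPM. Without that library the members called numbered 3 up to Day 60, 3 after Day 60 and 6 over the whole culture, and its part in the values below was not tested beyond leaving it out. The part of these other cells in the results was not tested beyond the values given, and in bulk RNA fewer cells of a type and less RNA per cell cannot be told apart.

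Over the whole culture, HEY2, TBX2, TBX3, HEY1 and IRX4 fell, SHOX2 rose from near the detection limit, and IRX3 did not pass the test. Between Day 30 and Day 113 this made 6 of the 7 genes called by edgeR's quasi-likelihood test at an adjusted p under 0.05, where 34.5% of all 19990 genes were called. For 5 of the 7 the call was a fall, against 17.2% of all genes, and for SHOX2 it was a rise, against 17.3%. Between Day 30 and Day 60, TBX2 and HEY1 fell (5.91% of all genes fell) and SHOX2 rose (4.39% rose), 3 of 7 where 10.3% of all genes were called. Between Day 60 and Day 113, HEY2 and TBX3 fell, 2 of 7 where 24.0% of all genes were called, a share close to that background. A joint test of any change over the 3 days called 5 of the 7, leaving out IRX3 and IRX4 (adjusted p = 0.36 and 0.058), where 37.1% of all genes were called.

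**Figure D1:**
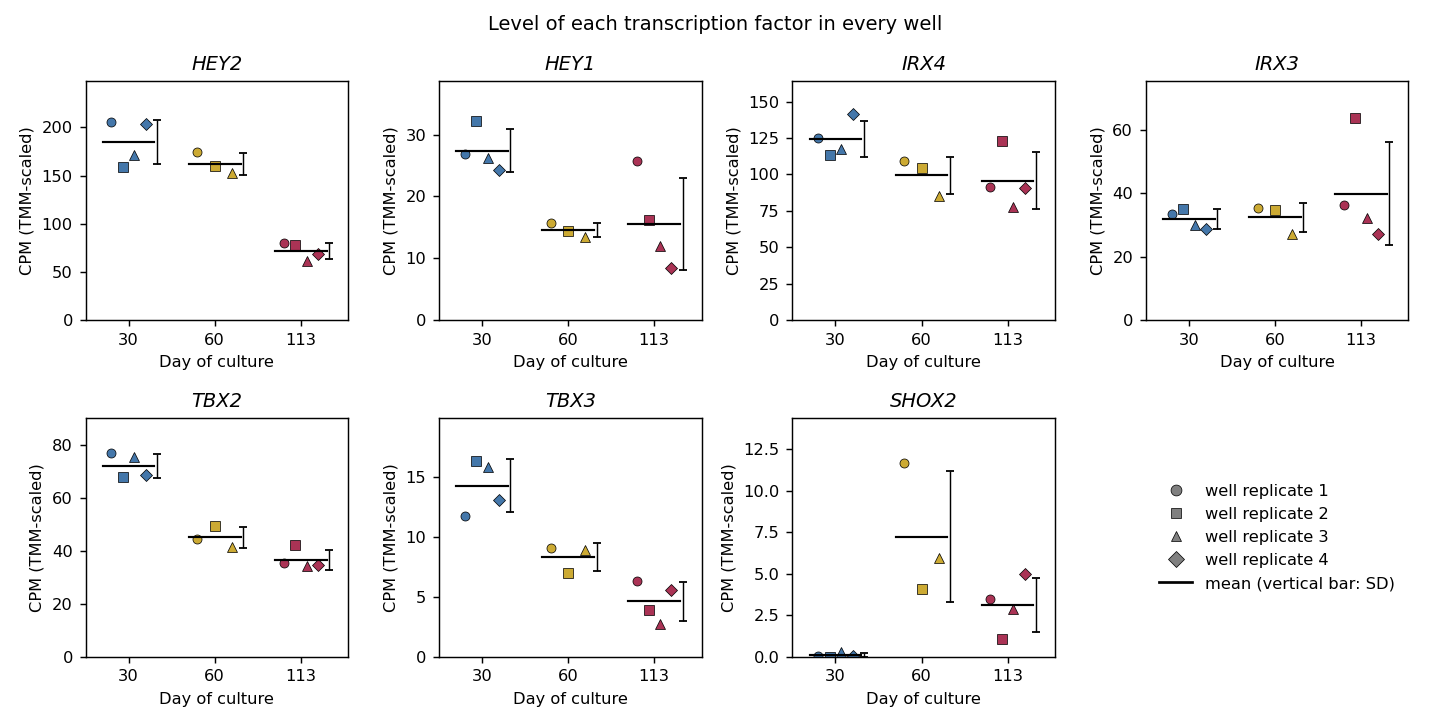
Level of each of the 7 transcription factors in every well, in TMM-scaled CPM (vertical axes, from 0) against day of culture; each symbol is a well, lines are means and vertical bars are SD. HEY2 stays between 152 and 206 CPM up to Day 60 and lies between 61.4 and 79.7 CPM at Day 113, TBX2 and TBX3 have their highest wells at Day 30, and SHOX2 is at most 0.263 CPM at Day 30.

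Single wells were compared as well. Between Day 30 and Day 60 the wells of 5 members did not overlap (IRX4, HEY1, TBX2 and TBX3 lower, SHOX2 higher), and 24.8% of all genes had wells that did not overlap. Between Day 60 and Day 113 this held for HEY2 and TBX3, both lower, where the share of all genes was 30.6%. Between Day 30 and Day 113 it held for HEY2, TBX2, TBX3 and SHOX2, where the share of all genes was 35.1%.

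Levels were compared between genes as mean CPM per kilobase of annotated exon. At Day 30, HEY2 stood highest at 67.5 ± 8.40 CPM per kb (SD, n = 4), followed by IRX4 at 44.2 ± 4.37, and the wells of these genes did not overlap on this scale. TBX2 (12.0 ± 0.755) and IRX3 (10.9 ± 1.06) were neighbours within their spread, HEY1 stood at 8.49 ± 1.05, TBX3 at 2.40 ± 0.372 and SHOX2 at 0.0185 ± 0.0233 CPM per kb (SD, n = 4). By Day 113 the means at the first positions had changed places, but the wells overlapped (IRX4 27.5 to 43.8, HEY2 22.4 to 29.1 CPM per kb). IRX4 then measured 34.0 ± 6.90 and HEY2 26.3 ± 3.10 CPM per kb (SD, n = 4), followed by IRX3 at 13.7 ± 5.61. At Day 60, SHOX2 at 1.43 ± 0.785 and TBX3 at 1.40 ± 0.196 CPM per kb (SD, n = 3) were not separated, and their order turned when the longest transcript was used as the length.

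HEY2, the ventricular HEY factor, kept most of its level to Day 60 and then fell by more than the spread between wells. Its levels were 205.6, 159.4, 171.7 and 203.2 CPM in the Day 30 wells, 174.7, 159.5 and 152.3 CPM in the Day 60 wells and 79.7, 78.0, 61.4 and 68.9 CPM in the Day 113 wells. All 4 Day 113 wells lay below every earlier well, whereas the Day 30 and Day 60 wells overlapped. The means were 185 ± 23.0 (SD, n = 4), 162 ± 11.4 (SD, n = 3) and 72.0 ± 8.49 CPM (SD, n = 4), which left 38.9% of the Day 30 level at Day 113. The log2 fold change up to Day 60 was -0.19 ± 0.12 (SE; adjusted p = 0.38), and after Day 60 it was -1.17 ± 0.12 (adjusted p = 9.9e-06). Over the whole culture it was -1.36 ± 0.11 (adjusted p = 2.2e-07).

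The timing itself was tested as the later change minus the earlier one. For HEY2 this difference was -0.98 on the log2 scale (adjusted p = 0.0073), and 9.34% of all genes passed this test, 4.97% with a higher and 4.38% with a lower later change. Without replicate 1 of Day 60 the difference was -0.90 with an adjusted p of 0.055, so this call rests on that well. Among the 7 genes, HEY2 and SHOX2 passed it.

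HEY2 lies on chromosome 6 at 125747664 to 125761269 on the plus strand (GENCODE v29, GRCh38). The stretch ahead of its RefSeq start is shown because HEY2 had the lowest p of the set and Notch signalling reaches HEY genes through RBPJ, whose core motif TGGGAA was searched for. The capitals mark its reverse complement, TTCCCA, beginning 213 bases before the start. The window is chr6:125749382-125749579 on GRCh38.p14 (RefSeq), plus strand, from 250 to 53 bases before the RefSeq start. It lies within the span of the GENCODE gene but in none of its exons.
HEY2: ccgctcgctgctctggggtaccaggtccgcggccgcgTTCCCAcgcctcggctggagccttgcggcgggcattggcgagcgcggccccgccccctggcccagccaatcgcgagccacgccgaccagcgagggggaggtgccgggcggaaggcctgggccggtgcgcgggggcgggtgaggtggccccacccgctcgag
Of 27305 RefSeq promoters cut to the same 250 bases ahead of the start, 21.1% held TGGGAA on either strand, so the match is a common one. The RefSeq table also held IRX4 and SHOX2. SHOX2 had the same letters on its minus strand, 175 bases before the start, and IRX4 had none. The further motifs, searched on both strands, matched none of the 3 windows. The T-box letters AGGTGT were in 9.66% of all promoters, and the Iroquois motif ACANNTGT was in 4.74%. Of the motifs bound by HEY factors, the E-box CACGTG was in 6.49%. Its variant CACGCG was in 9.62%. The letters AGATAA, bound by GATA factors, were in 9.37%. The HEY2 and IRX4 windows were GC-rich at 79.2% each against a median of 58.0% over all promoters, and the SHOX2 window measured 50.4%.

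HEY1, the atrial HEY factor, fell before Day 60. Its levels were 26.9, 32.3, 26.2 and 24.3 CPM at Day 30, 15.8, 14.5 and 13.4 CPM at Day 60, and 25.7, 16.2, 11.9 and 8.50 CPM at Day 113. Every Day 60 well lay below every Day 30 well, but at Day 113 the wells spread from 8.50 to 25.7 CPM and replicate 1 reached into the Day 30 range. HEY1 changed by -0.91 ± 0.27 on the log2 scale from Day 30 to Day 60 (adjusted p = 0.038) and by -0.81 ± 0.24 from Day 30 to Day 113 (adjusted p = 0.016). The value from Day 60 to Day 113 was 0.10 ± 0.26 (adjusted p = 0.83), and the later change minus the earlier one, 1.01, did not pass (adjusted p = 0.20).

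The early HEY1 call was fragile. It missed the threshold without any 1 of replicates 1, 2 and 3 of Day 30 or of the 3 Day 60 wells (adjusted p = 0.070 to 0.15), and with robust dispersions (adjusted p = 0.052). From Day 30 to Day 113 the call was lost without replicate 2 of Day 30 (adjusted p = 0.053) or replicate 3 of Day 113 (adjusted p = 0.051).

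Summed markers of several other cell types had the same highest and lowest Day 113 wells as HEY1. In Day 113 replicates 1 to 4 the endothelial sums were 888, 382, 440 and 232 CPM. The fibroblast and epicardial sums were 13086, 6827, 11313 and 5483 CPM, and the mural sums were 1581, 1249, 1324 and 1006 CPM. All 3 sums were highest in the well with the most HEY1 and lowest in the well with the least. Single genes of these lists did not all share that order, as WT1 was highest and PDGFRB lowest in replicate 2. Without Day 113 replicate 1, the log2 fold change of HEY1 was -1.17 from Day 30 and -0.25 from Day 60, the latter with its sign turned. HEYL, a relative of HEY1 and HEY2 found in vessel walls, measured 2.13, 2.81 and 12.2 CPM on average at the 3 days and rose by 2.51 on the log2 scale between Day 30 and Day 113 (adjusted p = 2.0e-05). Its Day 113 wells read 20.0, 8.51, 11.8 and 8.46 CPM, with replicate 1 highest as well. HEY2 was highest in replicate 1 too, but its Day 113 wells spanned 61.4 to 79.7 CPM with a coefficient of variation of 11.8%, against 47.7% for HEY1. The part of these cells in the HEY1 values was not tested.

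**Figure D2:**
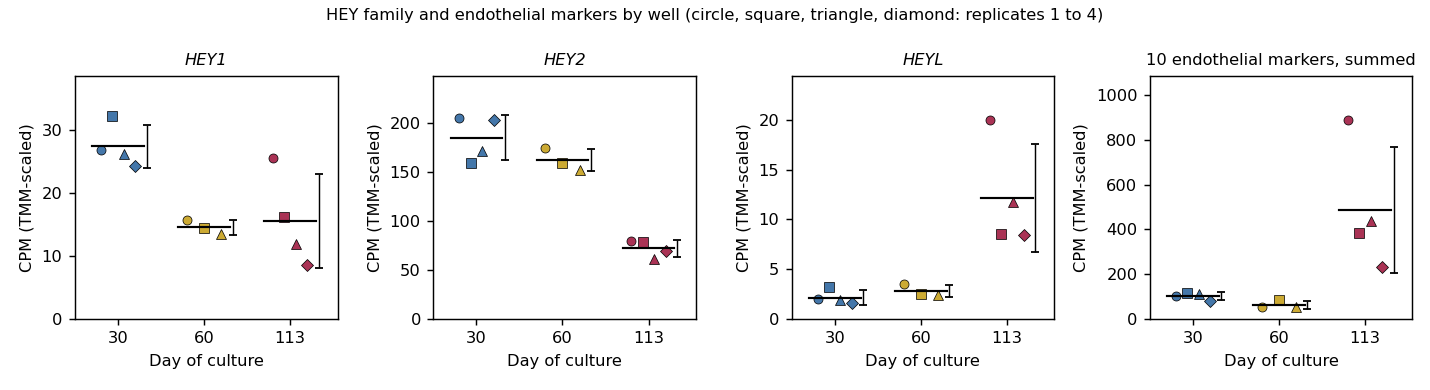
HEY1, HEY2, HEYL and the sum of 10 endothelial markers in each well, in TMM-scaled CPM from 0 against day of culture; lines are means and bars are SD. At Day 113 replicate 1 (circle) is highest for HEY1 at 25.7 CPM, for HEYL at 20.0 CPM and for the endothelial sum at 888 CPM, while the 4 HEY2 wells lie between 61.4 and 79.7 CPM.

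The other Notch pathway genes, 14 of 16 listed being in the table, showed no common direction over the whole culture. From Day 30 to Day 60, 0 rose, 1 fell and 13 did not pass, where 5.91% of all genes fell. The median log2 fold change was -0.26 beside -0.01 over all genes. The gene that fell was NOTCH3, also in the mural list, from 117 to 39.7 CPM (-1.56, adjusted p = 0.0074). From Day 30 to Day 113, 4 rose, 3 fell and 7 did not pass, where 17.3% of all genes rose and 17.2% fell. The median log2 fold change was -0.17 beside -0.02 over all genes. The ligand DLL4, typical of arterial endothelium, was at 8.71, 4.95 and 43.5 CPM and rose by 2.32 (adjusted p = 4.9e-04), with Day 113 wells of 74.6, 43.7, 36.6 and 18.9 CPM. LFNG, which modifies Notch receptors, rose by 1.53 and NRARP, a feedback inhibitor, by 1.41 on the log2 scale. RBPJ, the DNA-binding partner of Notch, fell by 0.49 (adjusted p = 0.0022) and the receptor NOTCH2 fell by 0.51 (adjusted p = 0.011). For the ligand JAG1 the value was -0.10 (adjusted p = 0.67). NOTCH1 gave 0.45 from Day 30 to Day 113 and did not pass (adjusted p = 0.15). It rose between Day 60 and Day 113, by 1.03 (adjusted p = 0.0084). Its wells overlapped there, at 19.2, 24.1 and 32.2 CPM and then 82.0, 41.2, 50.7 and 31.9 CPM.

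IRX4, the ventricular Iroquois factor on chromosome 5 (1877413 to 1887236, minus strand), declined slightly. Its levels were 125, 114, 117 and 141 CPM at Day 30, 109, 104 and 84.9 CPM at Day 60, and 91.4, 123, 77.5 and 90.4 CPM at Day 113. The Day 60 wells lay below all Day 30 wells, and Day 113 replicate 2 lay within the Day 30 range. The log2 fold change was -0.32 ± 0.14 to Day 60 (adjusted p = 0.18) and -0.38 ± 0.13 to Day 113 (adjusted p = 0.034). That last call was lost without replicate 1 or 4 of Day 30, or replicate 1, 3 or 4 of Day 113 (adjusted p = 0.063 to 0.11). It is the smallest change among the 6 called, since Day 113 kept 76.9% of the Day 30 mean.

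IRX3, the trabecular and conduction Iroquois factor on chromosome 16 (54283304 to 54286763, minus strand), passed no test. Its levels were 33.6, 35.2, 29.9 and 28.6 CPM at Day 30, 35.4, 34.8 and 27.1 CPM at Day 60, and 36.2, 63.8, 32.3 and 27.3 CPM at Day 113. Day 113 replicate 2 stood far above the other wells, which all lay between 27.1 and 36.2 CPM. From Day 30 to Day 113 the log2 fold change was 0.33 ± 0.20 (adjusted p = 0.24), and 0.0068 without that well. The same well, which differed in the single genes described above, had the highest IRX4 level of its day. It also had the highest endoderm and epithelial sum of its day at 244 CPM, the part of which was not tested.

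The Iroquois relatives IRX1 and IRX2 share the chromosome 5 cluster with IRX4, and IRX2 lies 859 kb from it. IRX1 measured 14.4, 6.15 and 6.38 CPM and fell by 1.17 on the log2 scale from Day 30 to Day 113 (adjusted p = 0.0014). IRX2 measured 12.7, 7.89 and 5.45 CPM and fell by 1.22 (adjusted p = 2.0e-04). On chromosome 16, IRX5 lies 644 kb from IRX3 and its value was -0.36 (adjusted p = 0.33), while IRX6, a further 389 kb on, rose from 0.0649 to 1.29 CPM (adjusted p = 0.0024). Over the 12 family relatives of the set in the table, 4 rose, 4 fell and 4 did not pass between these days. The shares of all genes were 17.3% higher and 17.2% lower. All 3 called neighbours moved by more than IRX4 did, but the difference between these genes was not tested. The Day 30 mean of IRX6 lay below the floor of 3 counts, so a few counts set the size of its change.

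Ventricular muscle genes gave no common direction beside HEY2 and IRX4. Of the 8 others listed, 3 rose, 2 fell and 3 did not pass from Day 30 to Day 113, with a median of -0.03. Among all genes 17.3% rose and 17.2% fell. MYL2, the ventricular myosin light chain, measured 158, 441 and 789 CPM and rose by 2.32 (adjusted p = 6.0e-07). CYP26B1, which degrades retinoic acid, rose by 1.29, and HAND1, a transcription factor of the left ventricle, fell by 1.49 (adjusted p = 5.6e-08). MYH7, the slow myosin heavy chain, fell by 0.73. HEY2 and MYL2, both ventricular by background, thus changed in opposite directions in the same wells.

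Among 13 atrial genes, which do not include HEY1, 6 rose, 3 fell and 4 did not pass, with a median of 0.22. The shares of all genes that rose and fell were 17.3% and 17.2%. NR2F1, an atrial nuclear receptor, measured 3.92, 33.2 and 28.9 CPM and rose by 2.88 (adjusted p = 1.8e-04). Its wells read 19.3, 40.6 and 39.8 CPM at Day 60 and 10.2, 24.0, 45.5 and 36.0 CPM at Day 113, and those of the neural marker PAX6 read 19.3, 44.9 and 48.7 CPM and 1.41, 12.9, 23.7 and 21.6 CPM. The order of the wells was the same at Day 113, and replicate 1 was lowest for both at Day 60. The part of neural cells in the NR2F1 values was not tested. NPPA, the atrial natriuretic peptide, rose by 2.31 and GJA5, the gap-junction protein connexin 40, by 2.56. The Day 113 wells of GJA5 read 194, 117, 107 and 106 CPM, highest in replicate 1 and lowest in replicate 4, as the endothelial sums were. Its means at Day 30 and Day 60 were 22.2 and 62.3 CPM, where the mean endothelial sums were 102 and 62.7 CPM. The part of endothelial cells in the GJA5 values was not tested. SLN, an inhibitor of the sarcoplasmic calcium pump, fell by 2.37. NR2F2, the close relative of NR2F1, gave -0.23 (adjusted p = 0.48).

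TBX2, a T-box repressor on chromosome 17 (61399896 to 61409466, plus strand), fell early. Its levels were 76.7, 67.7, 75.3 and 68.6 CPM at Day 30, 44.6, 49.2 and 41.5 CPM at Day 60, and 35.3, 42.3, 34.2 and 34.5 CPM at Day 113. All later wells lay below all Day 30 wells, and Day 113 replicate 2 was the single well of its day to reach into the Day 60 range. The log2 fold change was -0.68 ± 0.11 to Day 60 (adjusted p = 8.6e-04), -0.30 ± 0.11 from Day 60 to Day 113 (adjusted p = 0.052) and -0.98 ± 0.10 over the whole interval (adjusted p = 2.4e-06). The middle value lay near the threshold and was past it with 8 of the alternatives, DESeq2 (adjusted p = 0.025) and the fit without Day 113 replicate 2 (0.010) among them. The endoderm and epithelial sums dropped over the same step, from 987 to 2127 CPM at Day 30 to 460 to 591 CPM at Day 60, with AFP going from 500 to 5.95 CPM on average. Their part in the fall of TBX2 was not tested.

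TBX3, its close relative on chromosome 12 (114670254 to 114684164, minus strand), had a mean 3.08-fold lower at Day 113 than at Day 30. Its levels were 11.7, 16.3, 15.9 and 13.1 CPM at Day 30, 9.06, 6.96 and 8.90 CPM at Day 60, and 6.32, 3.94, 2.71 and 5.54 CPM at Day 113. Each day's range lay below that of the day before. The log2 fold change was -0.78 ± 0.25 to Day 60 (adjusted p = 0.061), -0.85 ± 0.25 from Day 60 to Day 113 (adjusted p = 0.022) and -1.62 ± 0.24 from Day 30 to Day 113 (adjusted p = 7.6e-05). Its ratio to TBX2 did not pass a test between Day 30 and Day 113 (-0.70 on the log2 scale, exact permutation p = 0.0857, adjusted 0.154). With so few wells, 1 ratio at the smallest possible p of 0.0286 could not pass alone after adjustment over 9 tests. The test therefore cannot decide whether the falls of TBX3 and TBX2 differed. The later step was lost without replicate 1 (adjusted p = 0.077) or replicate 3 (0.071) of Day 60, or with the Day 30 wells left out of the fit (0.062). The earlier step passed with the Day 113 wells left out of the fit (adjusted p = 0.0086), in DESeq2 (0.035), in limma-voom (0.034) and without replicate 1 (0.034) or replicate 3 (0.027) of Day 113. The later step minus the earlier one was -0.07 (adjusted p = 0.95).

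The T-box neighbours did not share 1 pattern. TBX5, an activator of the cardiac programme, lies 262 kb from TBX3 and measured 90.7, 122 and 82.7 CPM. It rose by 0.43 to Day 60 (adjusted p = 0.025) and fell by 0.56 thereafter (adjusted p = 0.0025). TBX4, a limb and lung factor 42.9 kb from TBX2, had 9, 20, 45 and 3 counts in the Day 30 wells and 0 counts in all 7 later wells. Like TBX2 it was called lower than at Day 30, both at Day 60 (adjusted p = 0.041) and at Day 113 (adjusted p = 0.0077). Its mean CPM at Day 30 was 6.47-fold the floor of 3 counts per library at Day 60 and 6.41-fold that at Day 113. Day 30 replicate 4, with 3 counts, was itself at that floor. TBX2-AS1, an antisense gene whose exons share no base with those of TBX2, measured 14.8 ± 2.16, 9.62 ± 1.92 and 7.99 ± 1.45 CPM (SD, n = 4, 3 and 4) and fell by 0.89 ± 0.18 from Day 30 to Day 113 (adjusted p = 0.0014). TBX2 shares 28 exon bases with another antisense gene, and since the strand setting of the counting is not given in the sources used here, that overlap cannot be resolved.

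Genes of the BMP pathway, which acts upstream of TBX2 and TBX3 in the embryo, mostly fell beside them. Of 19 in the table, 11 fell, 2 rose and 6 did not pass from Day 30 to Day 113. Over all genes 17.2% fell and 17.3% rose. The median was -0.47 beside -0.02 over all genes. The ligand BMP2 measured 58.5, 32.1 and 26.2 CPM and fell by 1.16 (adjusted p = 3.9e-05). BMP10, a trabecular and atrial ligand, fell by 2.09, and BMP4 fell by 0.79 (adjusted p = 0.019). The direct target genes ID1 and ID2 fell by 1.79 and 1.26. NOG, a secreted antagonist of BMP, fell by 3.20 as well, so that the genes that fell were not of 1 sign of action.

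**Figure D3:**
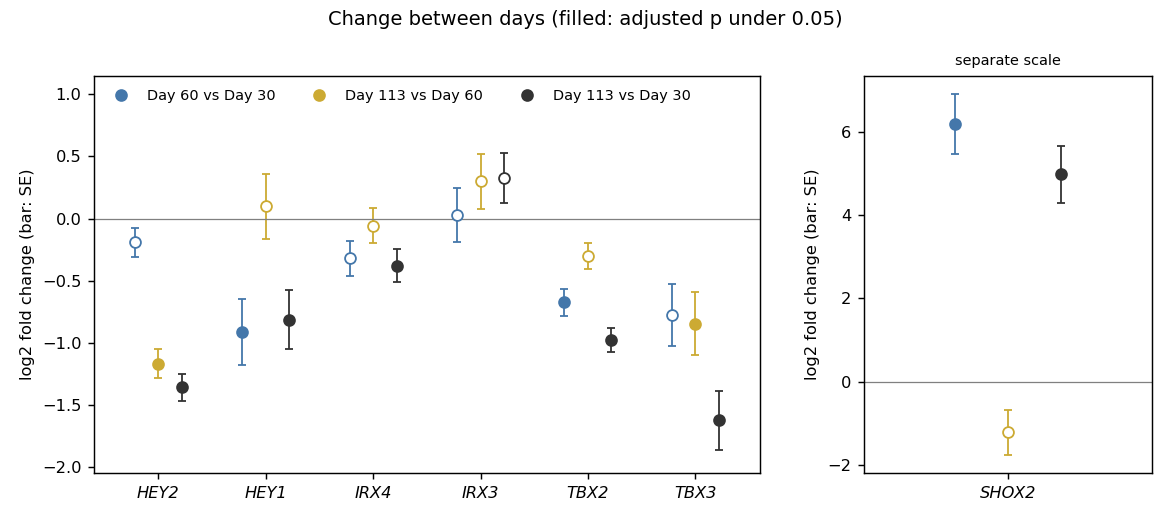
log2 fold change of each transcription factor between pairs of days (points) with its SE (bars); filled points have an adjusted p under 0.05, and SHOX2 has a separate scale. HEY2 lies at -0.19 to Day 60 and -1.17 after it, TBX2 at -0.68 and -0.30, and SHOX2 at 6.20 and -1.22.

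SHOX2, the sinoatrial factor on chromosome 3 (158095954 to 158106503, minus strand), was close to undetected at Day 30 and present in every later well. It had 2, 0, 8 and 1 counts in the Day 30 wells, 366, 111 and 188 counts in the Day 60 wells, and 120, 29, 101 and 125 counts in the Day 113 wells. In CPM these were at most 0.263 at Day 30, then 11.7, 4.09 and 5.93 at Day 60 and 3.46, 1.09, 2.88 and 5.01 at Day 113. All later wells lay above all Day 30 wells, and the Day 60 and Day 113 wells overlapped. Day 30 replicate 3, with 8 counts, held most of the 11 counts of its day, and 3 of the 4 wells were within the floor of 3 counts.

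The fitted log2 fold change was 6.20 ± 0.72 to Day 60 (adjusted p = 6.2e-05) and 4.98 ± 0.69 to Day 113 (adjusted p = 4.9e-05). Without Day 30 replicate 3 these were 7.51 and 6.30. From pooled counts, SHOX2 was 77.5-fold higher at Day 60 than at Day 30, with an exact 95% interval of 43.1 to 156 that covers counting error only, and 32.5-fold higher at Day 113 (18.0 to 65.7). Between Day 60 and Day 113 the value was -1.22 ± 0.54 (adjusted p = 0.12), and -0.69 without Day 60 replicate 1. The later change minus the earlier one was -7.41 (adjusted p = 6.4e-04), a call not made by limma-voom (adjusted p = 0.093).

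Of the exon bases of SHOX2, 156 (3.09%) overlap RSRC1 on the other strand. RSRC1 measured 14.5, 18.5 and 17.5 CPM, with a value of 0.36 on the log2 scale to Day 60 that did not pass (adjusted p = 0.15). The strand setting of the counting is not given, and the part of this overlap in the SHOX2 counts was not tested. SHOX2 is also expressed in limb, nerve and other tissues. Neural markers summed to 22.1 to 58.0 CPM at Day 30 and to 43.0, 93.8 and 94.9 CPM in the Day 60 wells, lowest in replicate 1, where SHOX2 was highest. Of the 7 neural genes in the table, 1 rose to Day 60, where 4.39% of all genes rose. The median over the 7 was 1.74 on the log2 scale beside -0.01 over all genes. PAX6, a neural and eye factor, gave 2.29 (adjusted p = 0.062). Between Day 30 and Day 113 none of the 7 passed by edgeR, with a median of 0.47. The part of neural cells in the SHOX2 values was not tested.

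The pacemaker genes around SHOX2 and TBX3 split. Of 12 other sinoatrial nodal genes, 6 rose, 4 fell and 2 did not pass between Day 30 and Day 113. Over all genes 17.3% rose and 17.2% fell. The median was 0.47 beside -0.02 over all genes. CPNE5, a calcium-binding copine, measured 43.1, 104 and 479 CPM and rose by 3.47 (adjusted p = 6.3e-12). RGS6, which damps G-protein signalling, rose by 1.67 and VSNL1, a neuronal calcium sensor, by 1.60. ISL1, a LIM-homeodomain factor of cardiac progenitors and the sinoatrial node, measured 10.3, 7.15 and 3.92 CPM and fell by 1.39 (adjusted p = 7.7e-05). The pacemaker channel HCN4 measured 269, 282 and 196 CPM and fell by 0.46 (adjusted p = 0.0073), and the calcium channel CACNA1D fell from 37.8 to 13.4 CPM (adjusted p = 6.4e-06). NKX2-5, which SHOX2 restrains in the embryo, gave -0.06 (adjusted p = 0.77) with means of 372, 346 and 356 CPM.

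**Figure D4:**
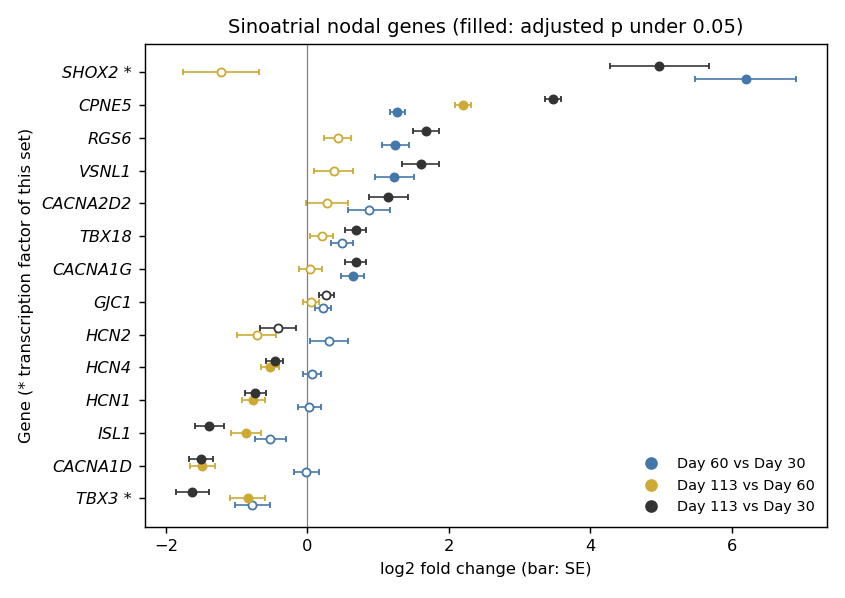
log2 fold change with SE for SHOX2 and TBX3 (starred) and 12 other sinoatrial nodal genes between pairs of days; filled points have an adjusted p under 0.05. From Day 30 to Day 113 SHOX2 (4.98) and CPNE5 (3.47) are at the top and TBX3 (-1.62) is at the bottom, next to CACNA1D.

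Of 10 other genes of fast conduction and the trabecular layer, where IRX3 belongs, 5 rose, 2 fell and 3 did not pass between Day 30 and Day 113, with a median of 0.56. GJA1, the gap-junction protein connexin 43, measured 167, 247 and 402 CPM and rose by 1.27. GJA5 and NPPA, given above, belong to this list too. Among 13 partner transcription factors of the set, 7 fell, 2 rose and 4 did not pass, with a median of -0.39. For both lists the shares of all genes were 17.3% higher and 17.2% lower. GATA4 measured 465, 409 and 288 CPM and fell by 0.69, whereas TBX18, a factor of the epicardium and sinoatrial node, rose by 0.69 (adjusted p = 0.0020).

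Ratios within a well do not depend on library scaling. HEY2 exceeded HEY1 in counts 4.94- to 8.36-fold at Day 30, about 11-fold in all 3 wells of Day 60 and 3.10- to 8.09-fold at Day 113. The Day 60 wells lay above all others, with a mean log2 ratio of 3.48 ± 0.02 (SD, n = 3) beside 2.75 ± 0.33 and 2.32 ± 0.57 (SD, n = 4 each). IRX4 exceeded IRX3 by 1.96 ± 0.25, 1.62 ± 0.03 and 1.32 ± 0.32 on the log2 scale, and the TBX3 to TBX2 ratio was -2.35 ± 0.28, -2.44 ± 0.33 and -3.05 ± 0.58. None of the 9 two-sided exact permutation tests passed after Benjamini-Hochberg adjustment: the lowest p was 0.0571 (adjusted 0.129), and 0.0286 was the smallest that such a test allows. A single ratio at 0.0286 could not pass this adjustment, so these tests cannot decide whether the ratios changed.

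**Figure D5:**
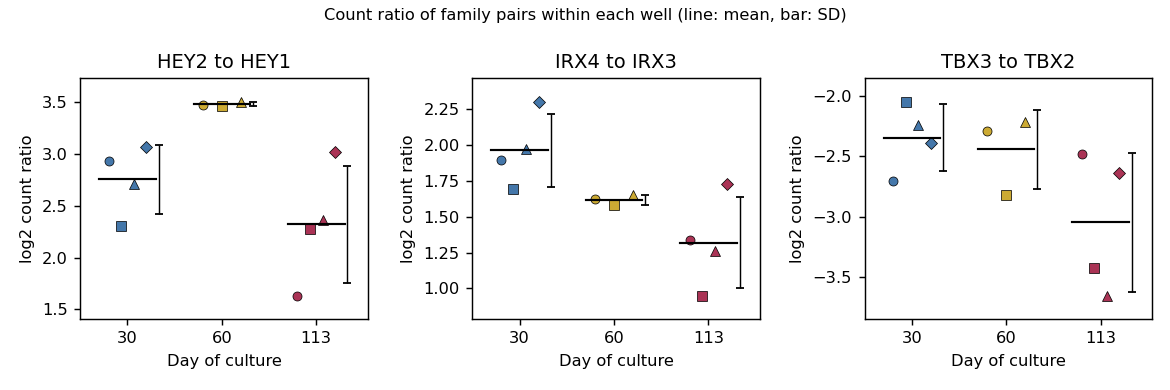
log2 count ratio of HEY2 to HEY1, IRX4 to IRX3 and TBX3 to TBX2 in each well against day of culture, with means (lines) and SD (bars). The HEY2 to HEY1 ratio is tight and highest at Day 60 (3.48 ± 0.02), and the IRX4 to IRX3 means step down from 1.96 to 1.32.

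Likeness of pattern was described as Pearson's r of log2 CPM over the 11 libraries, which share the 3 days. Within the set, HEY2 and TBX3 (r = 0.86), TBX2 and TBX3 (0.84) and HEY2 and TBX2 (0.82) were most alike, HEY1 and HEY2 gave 0.56 and IRX3 and IRX4 gave 0.29. The most opposed pair was TBX2 and SHOX2 (r = -0.83). Over all genes with a mean of at least 1 CPM, HEY2 was most like SGPP2, PLIN2 and SFXN1 (r = 0.99 each). HEY1 was most like ETS2 (0.97), SEMA6B and NFKBIZ (0.95 each). TBX2 was most like CEP170B, WARS2 and PCBP2 (0.98 each), and TBX3 like ZNF816, LMO3 and NIPA1 (0.95 each). Picked from beyond the first 3, the endoderm markers AFP and APOA1 ranked 5 and 7 for TBX2 (0.98 and 0.97). Pearson's r does not reflect the size of a change: from Day 30 to Day 113 AFP fell by 8.43 on the log2 scale and TBX2 by 0.98. SHOX2 was most like LOC107986558 and NHS (0.97 each) and VPS13D (0.95). IRX4 followed NADK and FBXO46 (0.92 each) and SHC2 (0.91), and IRX3 followed BORCS6 (0.93), RNF167 (0.91) and RNF10 (0.90), the lowest values of the set.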

How the data were processed

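Poly(A) RNA of 11 wells was sequenced as paired-end 150-base reads. Raw read counts of 19990 gene symbols, without normalization, and a TPM table were deposited by the authors. STAR 2.5.3a, featureCounts 2.0.3 and hg38 are named in the submitters' processing notes, and the annotation and strand setting are not given in the sources used here. The deposited TPM values entered no comparison, because the length implied by count over TPM differed between libraries by 8.45-fold (IRX4) to 324-fold (SHOX2) for the same gene.

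Groups followed the labelled days. Counts were tested in 1 fit of all 11 libraries with edgeR 4.0.16 (quasi-likelihood F-test, TMM factors 0.966 to 1.04, filterByExpr with a minimum count of 10, which removed 0 genes) in R 4.3.3. Benjamini-Hochberg adjustment ran over 19990 genes within each contrast at 0.05, and each adjusted p is from this test unless another tool is named. SE is the absolute log2 fold change over the square root of F. Wells of a day differed beyond sampling noise (chi-square per degree of freedom 11.4 to 84.0), so none was taken for a repeat of another. Ratios used a pseudocount of 0.5 and exact permutation tests (scipy 1.17.1). Positions and exon lengths came from GENCODE v29. Alternatives were RLE and upper-quartile scaling, DESeq2 1.42.0, limma-voom 3.58.1, robust dispersions, other filters, a replicate block, fits of 2 days and each well left out. The test was tested on simulated data.

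Beside the members, the genes named were at most 4 of each list with the largest called change between Day 30 and Day 113 at a mean of at least 1 CPM, fixed partner genes, the 2 most abundant genes of a marker list and the 3 genes of most similar pattern. RBPJ, TBX18, TBX4, TBX20, TTN, TNNT2, MYL7, IRX5, NOTCH2, NOTCH3, PAX6, APOA1, TBX2-AS1 and RSRC1 were added after their values were seen. The members and lists were chosen with earlier results of these data known.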

Additional observations from a re-analysis of the deposited data

Results flagged for a closer look

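TBX2 in Day 113 replicate 2 stood at 42.3 CPM while the other 3 wells of that day lay between 34.2 and 35.3 CPM. Its gap to the nearest well was 0.861 of the range of the day, above Dixon's 95% critical value of 0.829 for 4 samples. Some other genes differed in that well too, as with TTN at 2535 CPM against 5573 to 6744 CPM in the other wells of its day. The TBX2 value was 1 of 14 groups of 4 wells examined, and chance flags about 1 in 20.

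The change of HEY2 after Day 60 differed from its change before Day 60 by -0.98 on the log2 scale in edgeR's quasi-likelihood test (adjusted p = 0.0073), with all 4 Day 113 wells below all earlier wells. The change of SHOX2 differed between the same intervals by -7.41 (adjusted p = 6.4e-04), since it rose to Day 60 in all 3 wells and had a lower mean at Day 113.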

How the results depend on the processing

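The 35 member results (7 genes in 5 contrasts) were recomputed 686 times in all over the alternatives, and 631 of the values kept direction and call, 20 lost the call, 20 gained one and 15 turned in sign. The calls of HEY2 to Day 113 from either day, TBX2 and SHOX2 from Day 30 to either later day, and TBX3 from Day 30 to Day 113 held under every alternative run. Between Day 60 and Day 113 the members called were 2, but 1 with the 2 days alone in the fit and 1 at an adjusted p under 0.01; leaving out 1 well gave 1 to 3. The difference between intervals called 2, 1 in limma-voom, and 1 to 2 with a well left out; without Day 60 replicate 1 both counts were 1. Leaving out wells gave 2 to 4 calls for Day 60 against Day 30, 4 to 6 for Day 113 against Day 30 and 4 to 6 for any change. Values near 0 turned in sign with a well left out: IRX3 ran from -0.027 to 0.17 to Day 60, from -0.020 to 0.44 after it and from -0.046 to 0.42 for the difference, IRX4 from -0.20 to 0.032 and HEY1 from -0.25 to 0.30 after Day 60, TBX3 from -0.29 to 0.12 for the difference, and the TBX3 to TBX2 ratio from -0.22 to 0.090 to Day 60. The cause was not tested. Deviations from the day mean correlated at 0.0224 to 0.151 between same-numbered wells and at -0.136 to 0.142 between other wells. These ranges overlap, and whether well numbers pair the wells was not tested. With the replicate block the members called were 3, 3 and 6 for the 3 pairs of days, 6 for any change and 2 for the difference; SHOX2 after Day 60 was then called (-1.48, adjusted p = 0.042) and IRX3 to Day 60 was -0.083. Depth limits SHOX2 at Day 30, where 11 counts in 4 wells set the fold.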
